A study of Mus musculus with 36 samples.

Results

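The choroid plexus epithelial genes Ttr, Folr1, Clic6, Aqp1, Kl, Sostdc1, Slc4a5, Calml4, Tmem72 and F5 were followed in RNA-seq of the mouse cerebellum and hippocampus. Members were the entries with these 10 symbols in the gene count tables of both tissues, out of 24421 genes in each table. The study compared 18 adult C57Bl/6 mice, 6 of each genotype and 3 of each sex within a genotype, and both tissues came from the same animals, giving 36 libraries. Control mice were Pogzfl/fl and carried no Cre, Pogz cKO+/- mice were NesCre/+; Pogzfl/+, and Pogz cKO-/- mice were NesCre/+; Pogzfl/fl. The floxed allele was thus present in every group, and controls differ from the knockout groups also in the Cre transgene. Cre under the Nestin promoter acts in neural progenitors and the cells derived from them, so that deletion was restricted to the nervous system and was not aimed at any one brain cell type. The comparison asked how gene expression changes with each Pogz allele lost.

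The choroid plexus is a folded sheet of secretory epithelium over a core of stroma and capillaries that hangs into the brain ventricles and makes cerebrospinal fluid. One plexus lies in the fourth ventricle beneath the cerebellum and others lie in the lateral ventricles beside the hippocampus. Its epithelial cells derive from neural progenitors, keep positional genes of the brain region they come from, and devote much of their RNA to transthyretin, the carrier of thyroid hormone and retinol-binding protein in cerebrospinal fluid.

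The 250 bases before the starts of Kl, Slc4a5 and F5 are shown because these 3 members were tested in both tissues and have an entry in the RefSeq promoter table of build GRCm38.p6. Kl lies at chr5:150952357-150952606, Slc4a5 at chr6:83237125-83237374 and F5 at chr1:164151585-164151834, all on the + strand. Capitals mark the GC box GGGCGG and the TATA box TATAAA, each on either strand.
Kl: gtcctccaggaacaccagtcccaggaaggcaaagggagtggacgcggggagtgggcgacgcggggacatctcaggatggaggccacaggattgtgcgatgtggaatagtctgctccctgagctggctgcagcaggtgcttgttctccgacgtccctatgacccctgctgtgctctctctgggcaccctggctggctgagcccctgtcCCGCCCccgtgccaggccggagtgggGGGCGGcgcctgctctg
Slc4a5: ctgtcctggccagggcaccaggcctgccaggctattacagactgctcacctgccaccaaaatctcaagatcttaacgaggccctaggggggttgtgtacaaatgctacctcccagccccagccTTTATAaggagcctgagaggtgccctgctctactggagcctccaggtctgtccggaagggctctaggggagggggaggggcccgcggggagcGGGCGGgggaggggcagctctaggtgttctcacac
F5: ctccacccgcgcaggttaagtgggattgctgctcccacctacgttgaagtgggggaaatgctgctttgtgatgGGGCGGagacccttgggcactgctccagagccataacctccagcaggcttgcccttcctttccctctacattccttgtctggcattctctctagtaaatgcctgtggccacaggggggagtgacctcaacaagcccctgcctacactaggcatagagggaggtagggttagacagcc
Promoters of 6 of the 10 members were in the table, adding Aqp1, Calml4 and Tmem72, whereas Ttr, Folr1, Clic6 and Sostdc1 had no entry. The GC box was present in 5 of the 6, all but Tmem72, and in 32.7% of all 32851 promoters of the same length. These 6 promoters were also rich in GC, from 57.2% in F5 to 66.8% in Kl, against a median of 52.4% over all promoters. The TATA box was present in Slc4a5 alone and in 12.4% of all promoters. The letters TAATCC, the core bound by OTX2, a homeodomain factor of the choroid plexus, were found in 0 of the 6 and in 6.25% of all promoters. CCAAT was likewise found in 0 of the 6, against 33.8% of all promoters. These matches describe the letters only and do not identify binding sites.

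Total counts ran from 21421850 to 32544929 in the cerebellum and from 17609321 to 45544188 in the hippocampus, and levels are given as counts scaled to library size (CPM). Pogz, the targeted gene, was measured first as a check of the labels. In the cerebellum, its level averaged 99.6 ± 15.2 CPM in controls, 77.7 ± 5.78 CPM in cKO+/- and 65.8 ± 7.34 CPM in cKO-/- mice (SD, n = 6 each). In the hippocampus, Pogz averaged 90.9 ± 1.24 CPM in controls (n = 6), 76.4 ± 2.27 CPM in cKO+/- (n = 6) and 61.7 ± 3.55 CPM in cKO-/- mice (n = 5). Its level was lower with each allele lost in both tissues, and the hippocampal groups did not overlap, whereas in the cerebellum the highest cKO-/- library (74.0 CPM) exceeded the lowest cKO+/- library (66.4 CPM). Each allele lost lowered Pogz with a log2 fold change of -0.30 in the cerebellum (SE 0.0457, edgeR adjusted p = 0.000356) and -0.28 in the hippocampus (SE 0.0205, adjusted p = 1.79e-07).

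Some libraries stood apart and are named before the comparisons. Fits in the hippocampus used 17 libraries and not Sample_1160, a cKO-/- mouse, because the study set aside 1 library that it did not name and earlier work on these data matched it to this one. The hippocampal control library of Sample_1129 held 151 CPM summed over the cerebellar neuron markers Gabra6, Cbln3, Pcp2, En2 and Barhl2, against 1.15 to 4.74 CPM in the other 17 hippocampal libraries. It was also the hippocampal library with the most Ttr. The allele effect, the tissue difference, the hippocampal correlations with Ttr and the genes most like the members are therefore given with and without it. Sex differences and pairs of genotypes in the hippocampus were fitted only with it. The correlations of Ttr between the tissues were also computed only with it. Apart from that library the tissue labels held, since the same neuron markers summed to at least 2302 CPM in every cerebellar library. The animal numbers also split the groups unevenly. All 6 controls carry numbers from Sample_1120 to Sample_1219, together with 3 cKO+/- and 2 cKO-/- mice, whereas the 7 animals numbered outside that run were 3 cKO+/- and 4 cKO-/- mice. What the numbers stand for (birth, litter or date) is not given in the sources used here.

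Ttr varied widely between libraries of the same genotype. In the cerebellum, Ttr was at 2177 CPM in cKO+/- Sample_933, 2935 CPM in cKO+/- Sample_1433 and 2807 CPM in cKO-/- Sample_936. The other 15 cerebellar libraries lay at or below 44.6 CPM, and the libraries of control Sample_1170 and cKO+/- Sample_1176 had 0 Ttr counts, where 3 counts would be 0.113 and 0.102 CPM. Control libraries ranged from 0 to 1.13 CPM with a median of 0.314 CPM, cKO+/- libraries from 0 to 2935 CPM with a median of 2.16 CPM, and cKO-/- libraries from 0.0333 to 2807 CPM with a median of 15.6 CPM. The lowest libraries of all 3 genotypes overlapped near 0, and every library above 3 CPM came from a mouse without 1 or both Pogz alleles. In a bulk library, more cells of a type and more RNA per cell cannot be told apart, nor can fewer cells and less RNA per cell.

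In the hippocampus, the control libraries of Sample_1129 and Sample_1170 held 4557 and 2169 CPM of Ttr. Among cKO+/- mice, Sample_1189 had 591 CPM and Sample_1433 had 119 CPM. Among cKO-/- mice, Sample_1385 had 4542 CPM and Sample_1219 had 1018 CPM. Every genotype thus held 2 libraries above 100 CPM, a limit chosen after the values were seen, while the other 12 hippocampal libraries lay between 0.166 and 26.6 CPM. Control libraries ranged from 0.780 to 4557 CPM with a median of 8.53 CPM, cKO+/- from 1.16 to 591 CPM with a median of 14.5 CPM, and the 5 cKO-/- libraries from 0.166 to 4542 CPM with a median of 5.57 CPM. The genotypes overlapped over nearly their whole range. By sex, the 3 cerebellar libraries above 100 CPM were all from males, and the 6 hippocampal ones were from 3 males and 3 females.

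**Figure D1:**
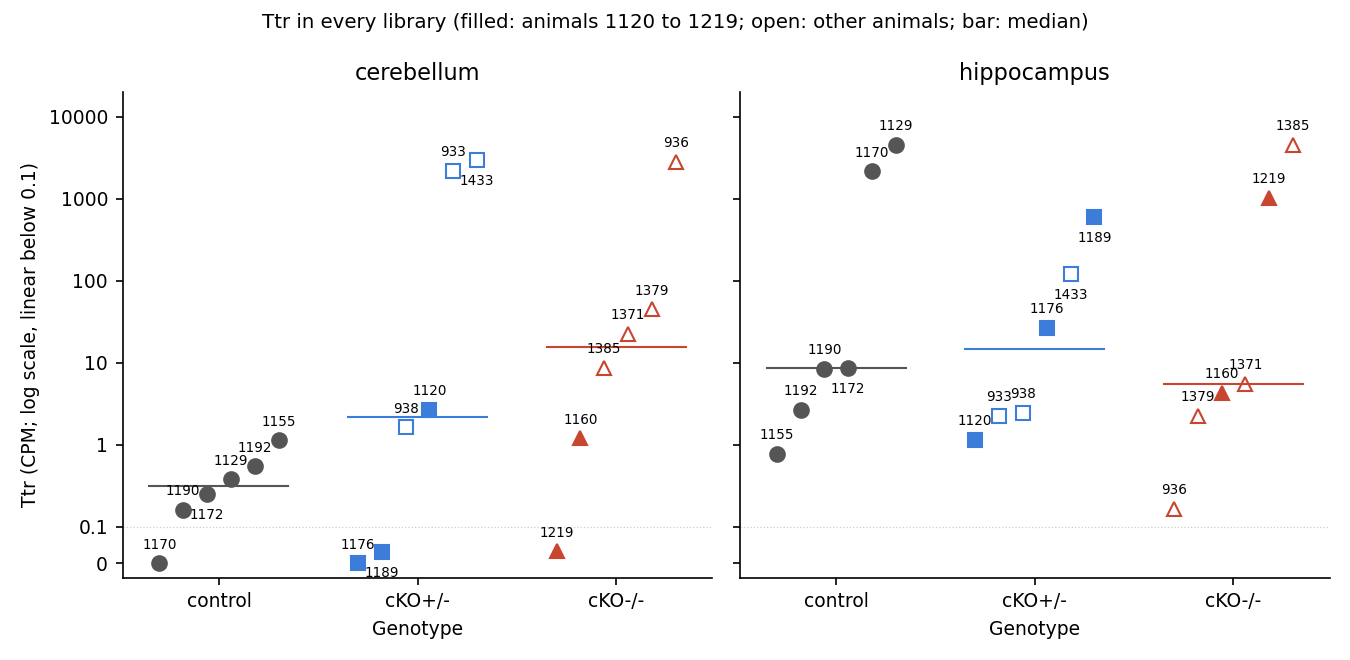
Ttr in each of the 18 cerebellar (left) and 18 hippocampal (right) libraries by genotype, in CPM on a log scale that is linear below 0.1, with animal numbers beside the points and bars at the group medians (without hippocampal Sample_1160). In the cerebellum the 3 libraries above 100 CPM are from 2 cKO+/- and 1 cKO-/- mice, all open symbols (animals outside Sample_1120 to Sample_1219), and in the hippocampus each genotype has 2 such libraries.

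The share of a library taken by this 1 gene was large where it was high. Ttr made up 0.472% of all counts in the hippocampus of control Sample_1129 (95% Wilson interval 0.470% to 0.474%), where it was the gene with rank 2 by count. In the hippocampus of cKO-/- Sample_1385 its share was 0.464% (0.462% to 0.467%) and it was the most abundant gene of the library. In the cerebellum its share reached 0.307% (0.305% to 0.309%) in cKO+/- Sample_1433, at rank 4. These intervals cover counting error only and are far narrower than the spread between libraries.

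Transport and secretion genes of the epithelium followed Ttr. Clic6, an intracellular chloride channel protein, was at 52.0, 65.3 and 63.1 CPM in the cerebellum of Sample_933, Sample_1433 and Sample_936, against 6.73 to 13.9 CPM in the other 15 libraries. Slc4a5, a sodium bicarbonate cotransporter, was at 19.2, 23.4 and 25.2 CPM in the same 3 libraries and at most 1.96 CPM elsewhere in the cerebellum. Aqp1, the water channel of the apical membrane, was at 12.2, 12.6 and 17.6 CPM and at most 0.605 CPM elsewhere. All 3 genes thus singled out the same 3 cerebellar libraries, on a background that was well above 0 for Clic6. In the hippocampus, Clic6 reached 85.1 CPM in control Sample_1129 and 116 CPM in cKO-/- Sample_1385 and stayed at or below 2.15 CPM in the 12 libraries that were low in Ttr. Slc4a5 reached 28.7 and 38.3 CPM in those same libraries and was at most 0.323 CPM in the 12. Aqp1 reached 25.9 and 27.9 CPM there, and was at most 0.741 CPM in the 12. Control and cKO-/- mice therefore overlapped for each of these genes, with high and low libraries in both groups.

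Folr1, the folate receptor by which the plexus delivers folate to cerebrospinal fluid, was at 0 counts in all 6 cerebellar controls. Its count was also 0 in the cerebellum of cKO+/- Sample_938, Sample_1176 and Sample_1189 and of cKO-/- Sample_1160 and Sample_1219. It reached 19.9 CPM in Sample_1433 and 16.2 CPM in Sample_936, with Sample_933 next, and was at most 0.374 CPM in the other cerebellar libraries. Folr1 has a close paralog, Folr2, and how the counting treated reads shared by such genes is not given, so its level is uncertain to that extent. In the hippocampus it was at 29.1 CPM in control Sample_1129 and 35.3 CPM in cKO-/- Sample_1385, and at most 1.90 CPM in the 12 low libraries.

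Secreted and membrane-bound signalling proteins had a background of their own in the hippocampus. Kl, which encodes klotho, the co-receptor of FGF23, was at 72.0, 96.5 and 88.9 CPM in the cerebellum of Sample_933, Sample_1433 and Sample_936 and at 1.10 to 5.68 CPM in the other 15 libraries. In the hippocampus, Kl ranged from 24.5 to 155 CPM in controls with a median of 29.5 CPM, from 14.6 to 41.6 CPM in cKO+/- with a median of 21.2 CPM, and from 15.7 to 198 CPM in the 5 cKO-/- libraries with a median of 18.8 CPM. Kl was thus readily measured in hippocampal libraries with almost no Ttr, and cKO+/- Sample_1433, at 119 CPM of Ttr, did not stand out for Kl with 24.1 CPM. Sostdc1, a secreted antagonist of BMP and Wnt signals, was at 11.1, 16.3 and 15.3 CPM in the 3 cerebellar libraries and at most 0.340 CPM in the other 15. In hippocampal libraries low in Ttr it reached 4.14 CPM, and it rose above that in 5 of the 6 libraries high in Ttr, up to 38.0 CPM in Sample_1385.

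The remaining members were low outside the same libraries. F5, coagulation factor V, was at 28.8 CPM in the cerebellum of Sample_933 and 36.2 CPM in that of Sample_1433, with Sample_936 between them, and at most 1.21 CPM in the others. Its exons share 262 bases with the antisense gene Gm16548, and since the use of strand is not given, reads there cannot be assigned. Gm16548 itself had at most 6 counts in any cerebellar and 7 in any hippocampal library, which is small beside F5. Calml4, a calmodulin-like protein, was at 5.40, 6.34 and 6.80 CPM in the 3 libraries and at most 1.43 CPM elsewhere in the cerebellum. Tmem72, a membrane protein, was at 5.44, 8.33 and 9.31 CPM and at most 0.306 CPM elsewhere. In the hippocampus, Tmem72 was at most 0.103 CPM in the 12 libraries low in Ttr and reached 15.8 CPM in Sample_1385, which made it, with Slc4a5, 1 of the members with the least background. In all 9 libraries above 100 CPM of Ttr, Clic6, Aqp1, Slc4a5, Tmem72 and F5 were higher than in any other library of the tissue, which held in 8 of the 9 for Folr1, Kl and Sostdc1 and in 7 for Calml4.

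**Figure D2:**
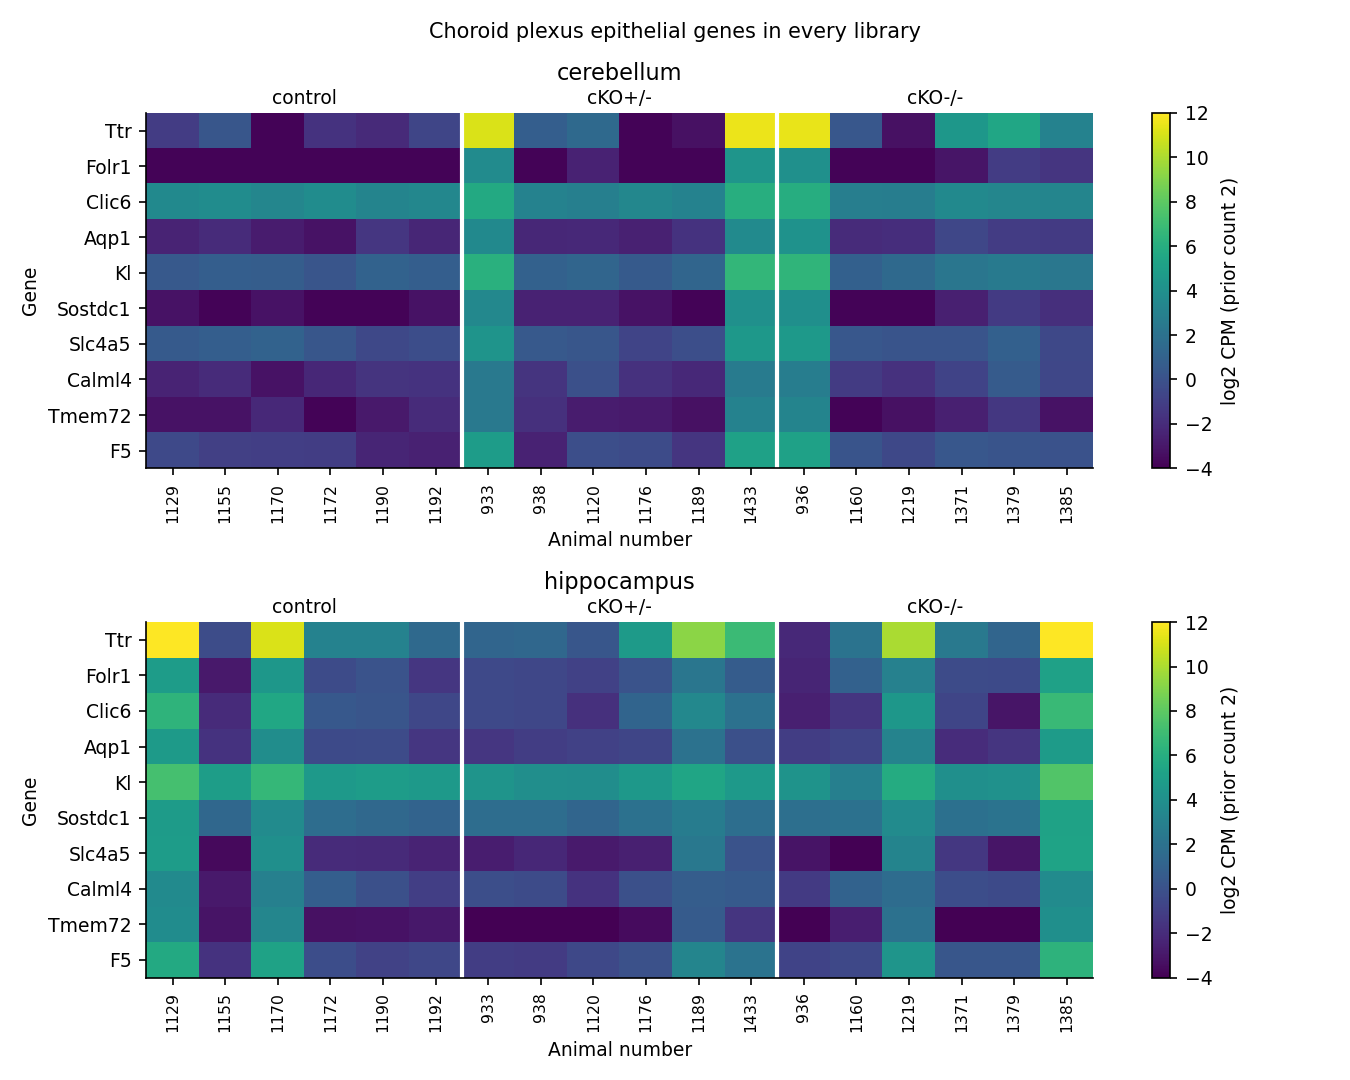
Level of the 10 genes in every library as log2 CPM (prior count 2), with libraries ordered by genotype and animal number, cerebellum above and hippocampus below. Columns of Sample_933, Sample_1433 and Sample_936 stand out for all 10 genes in the cerebellum, and those of Sample_1129, Sample_1170, Sample_1219 and Sample_1385 in the hippocampus, while hippocampal Sample_1189 stands out for all but Calml4.

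Proportions between members were compared in the libraries with much Ttr. Set per kb of exon, Slc4a5 was between 0.150% and 0.220% of Ttr in all 9 libraries above 100 CPM of Ttr, and Clic6 was between 0.609% and 1.07%. Aqp1 was between 0.191% and 0.380% of Ttr and Tmem72 between 0.0894% and 0.171%. These spans of about 2-fold compare with a range of Ttr itself from 119 to 4557 CPM over the same 9 libraries. Folr1 was between 0.501% and 1.10% of Ttr. Over the 9 libraries spans were wider for F5, between 0.188% and 0.589%, for Kl, between 0.755% and 4.82%, for Sostdc1, between 0.355% and 2.01%, and for Calml4, between 0.307% and 1.65%. In these 4 genes the highest value came from the hippocampus of Sample_1433, the library of the 9 with the least Ttr. In the other 8 libraries F5 was at most 0.324%, Kl 1.68%, Sostdc1 0.895% and Calml4 0.501% of Ttr, so the wider spans of F5 and Calml4 rested on that library. In the cerebellum alone, where the 3 libraries had similar Ttr, Kl lay between 0.755% and 0.789% of Ttr and Sostdc1 between 0.355% and 0.386%.

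Across the 17 hippocampal libraries, Ttr correlated with each of the 9 other members on the log2 CPM scale, with r from 0.874 (Kl) to 0.978 (Clic6) and rho from 0.725 (Sostdc1) to 0.961 (Clic6). All 9 relations had a permutation p of 1e-05 for r, the smallest that 100000 permutations can give, and an adjusted p of 1.38e-05 over 18 relations in both tissues. Without the 2 libraries farthest from the median of Ttr, r lay between 0.813 and 0.967, and without Sample_1129 it lay between 0.846 and 0.973. In the cerebellum the libraries formed separate clusters of 3 and 15, so the relation was computed within the 15. There, 5 of 9 relations had an adjusted p under 0.05: Folr1 (r = 0.77, adjusted p = 0.00508), Kl (r = 0.74, adjusted p = 0.00528), Sostdc1 (r = 0.77, adjusted p = 0.00508), Calml4 (r = 0.81, adjusted p = 0.00508) and Aqp1 (r = 0.64, adjusted p = 0.0234), by permutation. The rho values of these 5 were 0.77, 0.56, 0.65, 0.78 and 0.56, and those of Kl and Aqp1 had an adjusted p of 0.0668. Without the 2 farthest libraries r was 0.70 for Folr1, 0.47 for Kl, 0.64 for Sostdc1, 0.70 for Calml4 and 0.34 for Aqp1. The relations of Kl and Aqp1 thus rested in part on those libraries. With genotype means removed, r was 0.68 for Folr1, 0.59 for Kl, 0.75 for Sostdc1, 0.77 for Calml4 and 0.44 for Aqp1. Within the 11 hippocampal libraries at or below 100 CPM of Ttr, 2 of 9 relations passed by r, Folr1 (r = 0.82, rho = 0.85) and Clic6 (r = 0.83, rho = 0.86), each with an adjusted permutation p of 0.00508. By rho 4 of 9 passed there, adding Calml4 (rho = 0.85, adjusted p = 0.00479; r = 0.68, adjusted p = 0.0533) and Slc4a5 (rho = 0.81, adjusted p = 0.0125; r = 0.61, adjusted p = 0.0908). With Sample_1160 included, Slc4a5 no longer passed (rho = 0.64, permutation p adjusted over 18 relations in both tissues of 0.0668). Small amounts of Ttr and Folr1 thus rose and fell together also in hippocampal libraries far below the high ones. In the 15 cerebellar libraries, Folr1 had 3, 1, 11 and 8 counts in Sample_1120, Sample_1371, Sample_1379 and Sample_1385. It had 0 counts in the others, so its cerebellar r rests on those few libraries. Sostdc1 (at most 0.340 CPM in the 15), Aqp1 (at most 0.605 CPM) and Calml4 (at most 1.43 CPM) were low there too, so their cerebellar r rest on few counts.

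Ttr was compared between the 2 tissues of each animal. Of the 18 animals, 1 was above 100 CPM of Ttr in both tissues, cKO+/- Sample_1433, with 2935 CPM in the cerebellum and 119 CPM in the hippocampus. Animal Sample_936, high in the cerebellum, had the least Ttr of any hippocampal library (0.166 CPM), and Sample_1170, high in the hippocampus, had 0 counts in the cerebellum. Among the 14 animals at or below 100 CPM in the cerebellum (without Sample_1160), the tissues correlated with r = -0.38 (permutation p = 0.175) and rho = -0.50 (p = 0.0692), and r was -0.25 without the 2 farthest animals. With Sample_1160 these 15 animals gave r = -0.39 (p = 0.155) and rho = -0.51 (p = 0.0543). Within the 10 animals numbered Sample_1120 to Sample_1219 (without Sample_1160), r was -0.66 (permutation p = 0.0384) and rho -0.66 (p = 0.0448), and r was -0.40 without the 2 farthest. Among the 7 animals numbered outside, r was -0.26 (permutation p = 0.569). Over all 17 animals, which include the separate cluster of 3 high in the cerebellum, rho was -0.50 (permutation p = 0.0408) and r was -0.40 (p = 0.108). With Sample_1160 included, rho was -0.50 (p = 0.0344) and r was -0.39 (p = 0.109). All of these estimates were negative, and whether they had p under 0.05 depended on the animals included and on the measure.

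**Figure D3:**
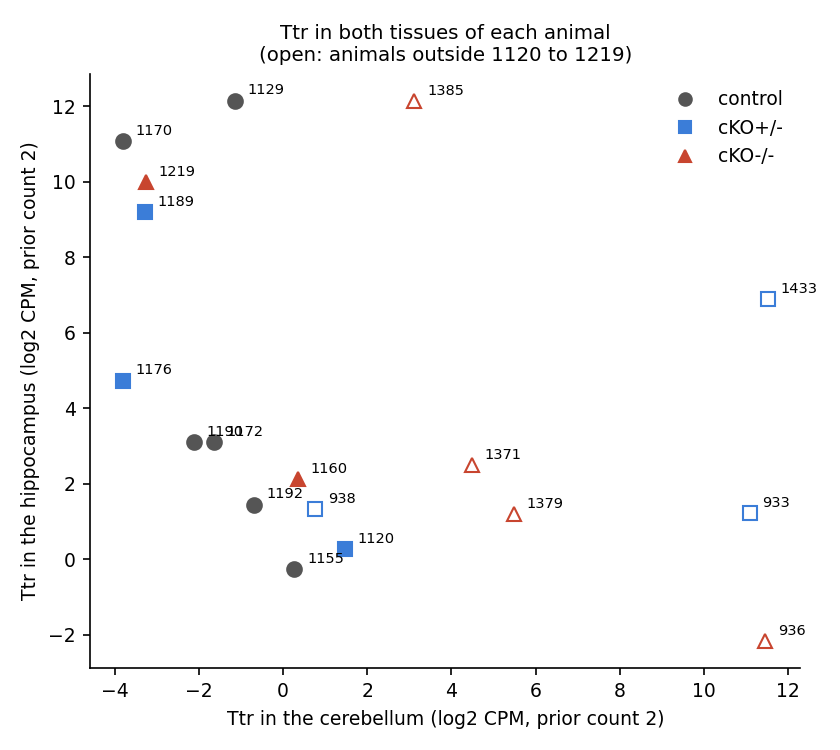
Ttr in the cerebellum (horizontal) against the hippocampus (vertical) of each of the 18 animals, both as log2 CPM (prior count 2), with shapes for genotype and open symbols for animals outside Sample_1120 to Sample_1219. Animal Sample_1433 is high on both axes, and the other libraries above 100 CPM are high on 1 axis only.

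The allele effect was tested with edgeR over all genes above 1 CPM in at least 6 libraries of the tissue. In the cerebellum 5 of the 10 members passed this filter (Ttr, Clic6, Kl, Slc4a5 and F5) and in the hippocampus 8 did (all but Aqp1 and Tmem72), which by itself supports nothing, because a member could pass through the few libraries where it was high. In the cerebellum, 9 of the 10 libraries above 1 CPM of Ttr and all 6 above 1 CPM of F5 were from cKO+/- or cKO-/- mice, so a higher level called for these 2 genes is counted only where the fit without a filter called it too. In the cerebellum 0 of 5 members were called at an adjusted p of 0.05, against 13.7% of the 14027 genes tested. An unadjusted p under 0.05 was found for 1 member and for 4233 of the 14027 genes. DESeq2 called 1 member, and the share of all genes it called is not given here. Ttr had the largest estimate, 3.67 per allele lost (SE 1.52, unadjusted p = 0.0256, adjusted p = 0.109), and DESeq2 gave 3.31 (SE 0.960, adjusted p = 0.00706), a call made under the same filter. Kl was at 1.23 (SE 0.598, adjusted p = 0.172), F5 at 1.21 (SE 0.757), Slc4a5 at 0.48 (SE 0.521) and Clic6 at 0.15 (SE 0.286). Over all genes tested 997 were called higher and 919 lower. Without a filter on low counts, 0 of 10 were called by edgeR against 9.27% of 20443 genes. Of the members 4 had an unadjusted p under 0.05, and of the 20443 genes 5136 did. Leaving out cKO-/- Sample_1219, which had 1 Ttr count, brought Ttr to 4.60 with an adjusted p of 0.0448, also under the filter.

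In the hippocampus 0 of 8 members were called by edgeR, against 4.44% of 14339 genes; 0 had an unadjusted p under 0.05, and DESeq2 called 0. The estimates ran from 0.04 for Kl (SE 0.296) to 0.74 for Ttr (SE 1.11, adjusted p = 0.741). Groups overlapped for every member, and the standard error exceeded the estimate for 6 of the 8. With all 18 libraries, 0 of 8 were called against 1.72% of genes, and without a filter 0 of 10 against 3.21%. With Sample_1129 also set aside, the hippocampal count was again 0. Over all hippocampal fits that left out 1 animal, 286 to 937 genes were called.

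Genotypes were also compared as pairs that share the controls. Between cKO-/- and control cerebellum, 1 of 5 members was called against 12.7% of genes, Ttr, higher in cKO-/- by 11.04 on the log2 scale (SE 2.79, adjusted p = 0.0168). Its controls reached 1.13 CPM, and 4 of the 6 cKO-/- libraries were well above that, at 8.63, 22.5, 44.6 and 2807 CPM, while Sample_1160, at 1.21 CPM, lay just above the controls and Sample_1219, at 0.0333 CPM, among them. Without a filter, 5 of 10 members were called (Ttr, Aqp1, Calml4, Folr1 and Sostdc1) against 9.04% of genes. Between cKO+/- and control cerebellum, 0 of 5 were called by edgeR against 0.342% of genes (3 had an unadjusted p under 0.05). The estimate for Ttr was 10.21 (SE 2.79, adjusted p = 0.171). In the hippocampus 0 of 8 were called for cKO-/- (4.87% of genes; 0 members at an unadjusted p under 0.05) and 0 of 8 for cKO+/- (0.0349% of genes; 0 members at an unadjusted p under 0.05).

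**Figure D4:**
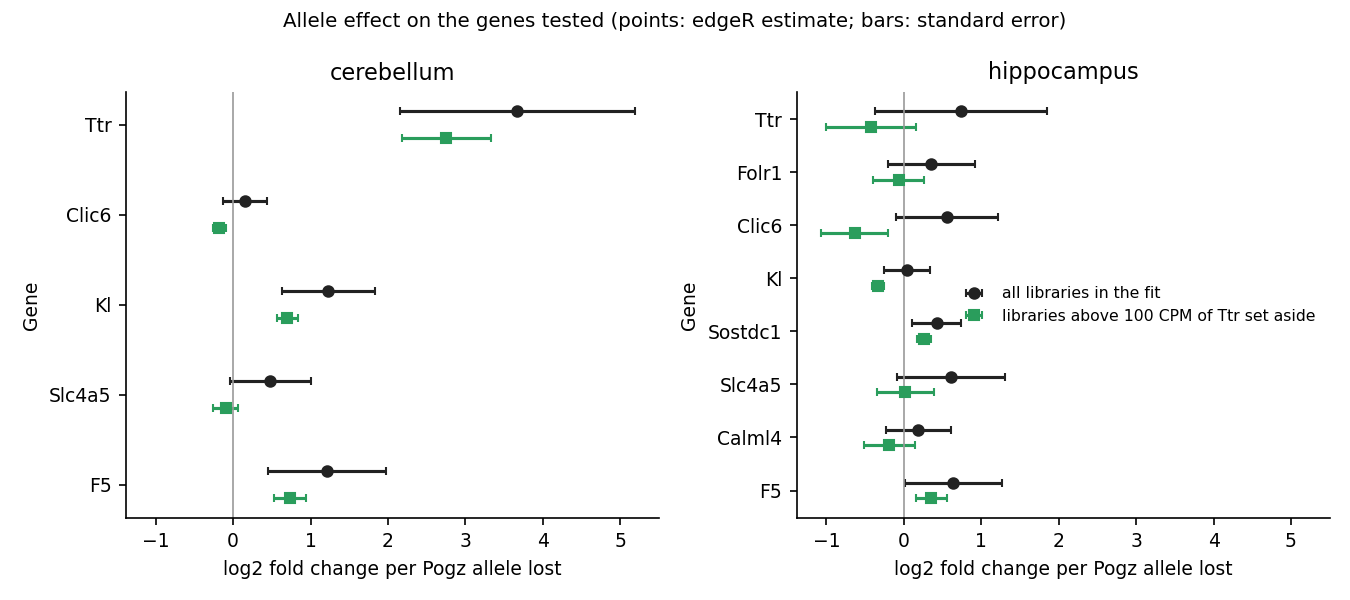
Log2 fold change per Pogz allele lost for the members tested in the cerebellum (left) and hippocampus (right), edgeR estimates with bars of 1 standard error, for all libraries of the fit (black circles) and with libraries above 100 CPM of Ttr set aside (green squares). In the cerebellum Ttr moves from 3.67 to 2.75 and its standard error shrinks from 1.52 to 0.572.

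These comparisons changed with the libraries and animals included. With the 3 cerebellar libraries above 100 CPM of Ttr set aside, a choice made by Ttr level itself and after seeing the data, 3 of 5 members were called against 10.6% of genes. They were Ttr at 2.75 (SE 0.572, adjusted p = 0.00727), Kl at 0.70 (SE 0.132, adjusted p = 0.00373) and F5 at 0.73 (SE 0.207, adjusted p = 0.0346). None of the 3 is counted as a rise, because the libraries set aside were also the 3 with the most Kl and the most F5, so the choice was made by the outcome of each. Clic6 and Slc4a5 turned negative, at -0.18 and -0.09, and were not called. In these 15 libraries the cKO-/- mice Sample_1371, Sample_1379 and Sample_1385 had the most Ttr, with 22.5, 44.6 and 8.63 CPM, and the most Kl, with 4.79, 5.68 and 4.96 CPM, and all 3 are numbered outside Sample_1120 to Sample_1219. The same 3 had the highest sums of thalamus and habenula markers in the cerebellum, 115, 137 and 155 CPM against 58.5 to 113 CPM in the other 15 libraries. The most abundant of these markers, Prkcd, had a median of 80.0 CPM in the cerebellum against 24.5 CPM in the hippocampus. Tac2 and Chrnb3 reached only 0.170 and 0.919 CPM in the cerebellum. These sums therefore do not single out thalamic tissue. In the hippocampus, setting aside the libraries above 100 CPM left 0 of 8 called by edgeR against 0.893% of genes, with 2 at an unadjusted p under 0.05. The estimate for Kl there was negative, at -0.33 (SE 0.0764, unadjusted p = 0.000881, adjusted p = 0.0665), and that for Sostdc1 was positive, at 0.26 (SE 0.0918, unadjusted p = 0.0139, adjusted p = 0.211).

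Cerebellar Ttr differed between ranges of animal numbers. The 11 animals numbered Sample_1120 to Sample_1219 had 0 to 2.68 CPM with a median of 0.248 CPM, and the 7 outside had 1.63 to 2935 CPM with a median of 44.6 CPM. Within the run, controls had 0 to 1.13 CPM, the 3 cKO+/- mice 0, 0.0311 and 2.68 CPM, and the 2 cKO-/- mice 0.0333 and 1.21 CPM, so that the genotypes overlapped there. A term for animals outside the run, added to the fit, called all 5 members tested as higher outside, against 9.2% of genes in both directions. Ttr was higher by 9.89 (SE 1.73, adjusted p = 0.00457), F5 by 3.92, Kl by 3.67, Slc4a5 by 2.92 and Clic6 by 1.73, and without a filter 10 of 10 members were called as higher, Ttr and F5 among them, against 6.85% of genes. In the filtered fit with this term and all 18 libraries, the allele effect on Ttr was -0.09 (adjusted p = 0.980), and 0 of 5 members and 308 of 14027 genes were called. With the 3 libraries above 100 CPM set aside, 0 of 5 members and 204 of 14027 genes were called for the number term by edgeR, with Ttr at 4.01 (adjusted p = 0.0836). The allele effect on Ttr was then 0.85 (adjusted p = 0.661), and 233 genes were called. Restricted to animals Sample_1120 to Sample_1219, the estimate for Ttr between cKO-/- and control cerebellum was 0.26 (adjusted p = 0.941). No control lies outside the run, so a difference between controls and animals outside it can be due to either. Within a genotype the ranges can be compared, and cKO+/- mice had 0 to 2.68 CPM of Ttr within the run and 1.63 to 2935 CPM outside it. For cKO-/- mice these were 0.0333 to 1.21 CPM and 8.63 to 2807 CPM, which do not overlap. In the hippocampus the term called 0 of 8 members and 0% of genes by edgeR, with 0 members at an unadjusted p under 0.05, and its 8 estimates were negative.

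The number term was not limited to the members. In the cerebellum it called 17 of 25 other choroid plexus genes and 7 of 9 meningeal fibroblast markers as higher outside the run, and 3 of 5 cerebellar neuron markers as lower (median -0.44). It also called 1 of 7 ependymal and 1 of 2 thalamus and habenula markers as higher. Of all 14027 genes it called 1290, of which 357 as lower.

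Ttr was also used as a covariate, to ask what other members did at a given level of Ttr. In the cerebellum the 4 other members tested were called as higher with Ttr, against 6.15% of genes in both directions, and in the hippocampus 7 of 7 were (1.15% of genes). Clic6 and Kl in the cerebellum, and Kl and Sostdc1 in the hippocampus, were above 1 CPM in all 18 libraries and rose with Ttr over all libraries of the fit. Their slopes per log2 unit of Ttr were 0.19 for Clic6 and 0.37 for Kl in the cerebellum, and 0.22 for Kl and 0.24 for Sostdc1 in the hippocampus. Apart from Kl in the cerebellum, these slopes rest on the libraries above 100 CPM of Ttr: in the others r with Ttr was 0.14 for cerebellar Clic6 (permutation p = 0.619), 0.23 for hippocampal Kl (p = 0.508) and 0.19 for Sostdc1 (p = 0.570). In the hippocampus the other 5 would pass the filter through the 6 libraries above 100 CPM of Ttr alone. Slc4a5 passed through no others, so the calls of these 5 are not counted. In the cerebellum, F5 was above 1 CPM in 6 libraries, and 3 of these were above 100 CPM of Ttr. The cerebellar call of F5 is therefore not counted either. At a given Ttr level the allele effect called 0 of 4 members in the cerebellum (4.97% of genes; 1 member at an unadjusted p under 0.05) and 0 of 7 in the hippocampus (4.31% of genes; 2 members at an unadjusted p under 0.05) by edgeR.

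Between the sexes no member was called in either tissue. In the cerebellum 0 of 5 members were called by edgeR, against 0.0499% of genes. All 5 had an unadjusted p under 0.05, as did 475 of the 14027 genes tested. The estimate, male minus female, was 8.66 for Ttr (SE 1.96, adjusted p = 0.315) and 3.59 for Kl (SE 0.847, adjusted p = 0.382). In the hippocampus 0 of 8 were called by edgeR against 0.907% of genes, 7 had an unadjusted p under 0.05, and the estimate for Clic6 was -3.14 (SE 1.20, adjusted p = 0.198). The 3 high cerebellar libraries were all from males, and the 3 hippocampal libraries with the most Ttr (Sample_1129, Sample_1385 and Sample_1170) were all from females.

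Between tissues, in a fit of 35 libraries with genotype effects within each tissue, 3 of 10 members were higher in control hippocampus than in control cerebellum, against 75.1% of 14870 genes that differed in either direction. Kl was higher by 3.73 (SE 1.17, adjusted p = 0.00482), Sostdc1 by 3.83 (SE 1.47, adjusted p = 0.0193) and Calml4 by 2.63 (SE 1.18, adjusted p = 0.0428). With the animal as a block, Folr1 passed as well, at 5.53 (SE 2.25, adjusted p = 0.0320), and Calml4 no longer did (2.60, adjusted p = 0.0603). Without the hippocampal library of Sample_1129, Kl alone was called, with Sostdc1 at 3.03 (adjusted p = 0.0514) and Calml4 at 1.91 (adjusted p = 0.123). The share of members called was well under that of all genes, and such a difference was common among all genes. The allele effect differed between tissues for 0 of 10 members by edgeR, against 1.63% of genes, with 0 at an unadjusted p under 0.05.

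Other genes of the choroid plexus epithelium were mostly highest in the same libraries. Of a list of 34 genes, 33 were detected in the cerebellum and 33 in the hippocampus, Mfrp being at 0 counts in every library. Their summed level was 2493, 3098 and 3045 CPM in cerebellar Sample_933, Sample_1433 and Sample_936, against 800 to 1184 CPM in the other 15. In the hippocampus the sum was 3325 CPM in Sample_1129, 2126 in Sample_1170, 1026 in Sample_1189, 1417 in Sample_1219, 4663 in Sample_1385 and 744 in Sample_1433, against 503 to 670 CPM in the other 12. The most abundant gene was Enpp2, the lysophospholipase autotaxin, which other brain cells express as well, with a mean of 372 CPM in the cerebellum. Of the detected genes, 31 in the cerebellum and 33 in the hippocampus had their highest level in a library above 100 CPM of Ttr. Fewer, 22 in the cerebellum and 13 in the hippocampus, were higher in each of those libraries than in all others. Prlr, the prolactin receptor, reached 23.3 CPM in cerebellar Sample_936 against a median of 0.787 CPM, and 111 CPM in hippocampal Sample_1385 against a median of 4.88 CPM. Kcne2, a potassium channel subunit, reached 23.5 CPM in cerebellar Sample_1433 against a median of 0.0859 CPM. The allele effect called 7 of 25 of these genes in the cerebellum, 6 higher and 1 lower, with a median of 0.52, against 13.7% of all genes. In the hippocampus it called 0 of 27 by edgeR (2 had an unadjusted p under 0.05), against 4.44% of all genes. The 6 were Htr2c, Igf2, Igfbp2, Msx1, Slc13a4 and Slco1a5, and the 1 that fell was Col9a3. Several of them are not restricted to this epithelium, Igf2, Igfbp2 and Slc13a4 being expressed by meningeal cells too. For the level of Ttr itself, 22 of 25 were called as higher with Ttr in the cerebellum and 24 of 27 in the hippocampus. The shares of all genes called in both directions were 6.15% and 1.15%. Hippocampal Kcnj13 and Cldn2 were above 1 CPM only in the 6 libraries above 100 CPM of Ttr, so a call for them was fixed by the filter. How many other genes passed in this way was not tested, so these counts by themselves support nothing.

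Genes of neighbouring cells were read in the same libraries. Markers of ependyma, the ciliated lining of the ventricles, summed to between 34.7 and 93.1 CPM in the cerebellum, with Dnah11 the most abundant. Sample_933, Sample_1433 and Sample_936 held 63.7, 93.1 and 87.4 CPM, and the other libraries up to 84.1 CPM (control Sample_1129). Of 10 ependymal genes, 7 had their highest level in a library above 100 CPM of Ttr. Of these genes, 2 were higher in each such library than in all others. For the allele effect 0 of 7 were called by edgeR, with 2 at an unadjusted p under 0.05. Meningeal fibroblast markers, led by Col1a2, were highest in cerebellar cKO-/- Sample_1371, Sample_1379 and Sample_1385, at 296, 312 and 317 CPM, against 133 to 262 CPM in the other 15 libraries, and 6 of 9 rose with each allele lost, against 13.7% of all genes. Those 3 animals had the most Ttr below the 3 high libraries. Border macrophage markers, led by Mrc1, summed to between 9.36 and 24.3 CPM, and 1 of 4 was called as higher, Mrc1 (adjusted p = 0.0453), which was not called without a filter (adjusted p = 0.0534). Endothelial markers, led by Slco1a4, summed to between 178 and 273 CPM, and 2 of 7 fell, Plvap and Ly6c1. Of the red blood cell markers 1 was tested, Alas2, which was not called. In the hippocampus, 0 of 9 ependymal markers, 1 of 9 meningeal (Lum), 2 of 7 endothelial (Pecam1 and Tek, both higher), 0 of 3 border macrophage and 0 of 1 red blood cell markers were called for the allele effect, against 4.44% of all genes. The call of Pecam1 was lost without a filter (adjusted p = 0.0507). Ependymal sums there were highest in the 3 libraries with the most Ttr, at 86.6 CPM in Sample_1385, 84.1 CPM in Sample_1129 and 67.1 CPM in Sample_1170, against at most 61.8 CPM in the others. Whether these cells took part in the levels of the members was not tested.

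Markers of the labelled and neighbouring brain regions were read as well. The share of all genes called for the allele effect was 13.7% in the cerebellum and 4.44% in the hippocampus. Of 5 cerebellar neuron markers, led by Cbln3, 0 were called in the cerebellum by edgeR, with 1 at an unadjusted p under 0.05, and in the hippocampus none was tested. Of 5 hippocampal neuron markers, led by Fibcd1 in the hippocampus, C1ql2 fell there, and in the cerebellum the 1 tested, Neurod6, rose. Of the thalamus and habenula markers, led by Prkcd, 0 of 2 were called in the cerebellum and 1 of 3, Prkcd, fell in the hippocampus. Of the midbrain and brainstem markers, led by Slc18a2, 1 of 2 rose in the cerebellum, Tph2, and 0 of 3 were called in the hippocampus. Their sum in the cerebellum was highest in Sample_936 and Sample_1433, at 14.2 and 12.4 CPM, but Sample_933, at 8.14 CPM, lay within the 6.83 to 9.76 CPM of the other 15 libraries.

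Genes of hindbrain position set the high cerebellar libraries apart from the high hippocampal ones. The 6 genes Hoxa2, Hoxa3, Hoxb2, Hoxb3, Hoxb4 and Hoxd3, which mark cells from the hindbrain caudal to the cerebellar primordium, summed to 3.17, 3.55 and 11.1 CPM in the cerebellum of Sample_933, Sample_1433 and Sample_936. The other 15 cerebellar libraries had at most 0.372 CPM, the highest being cKO-/- Sample_1371. In the hippocampus the sum was at most 0.210 CPM in all 18 libraries, including those with more Ttr than any cerebellar library, such as 0.0836 CPM in Sample_1129 and 0 in Sample_1385. Hoxb3 alone was at 4.15 CPM in Sample_936. No gene of this list passed the filter in either tissue. Without a filter, the allele effect in the cerebellum called 1 of 6, Hoxb3, higher by 2.16 (SE 0.673, adjusted p = 0.0469), with 4 at an unadjusted p under 0.05 and a median of 1.62, against 9.27% of all genes. In the hippocampus it called 0 of 5 by edgeR, 0 of them having an unadjusted p under 0.05, against 3.21% of all genes.

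**Figure D5:**
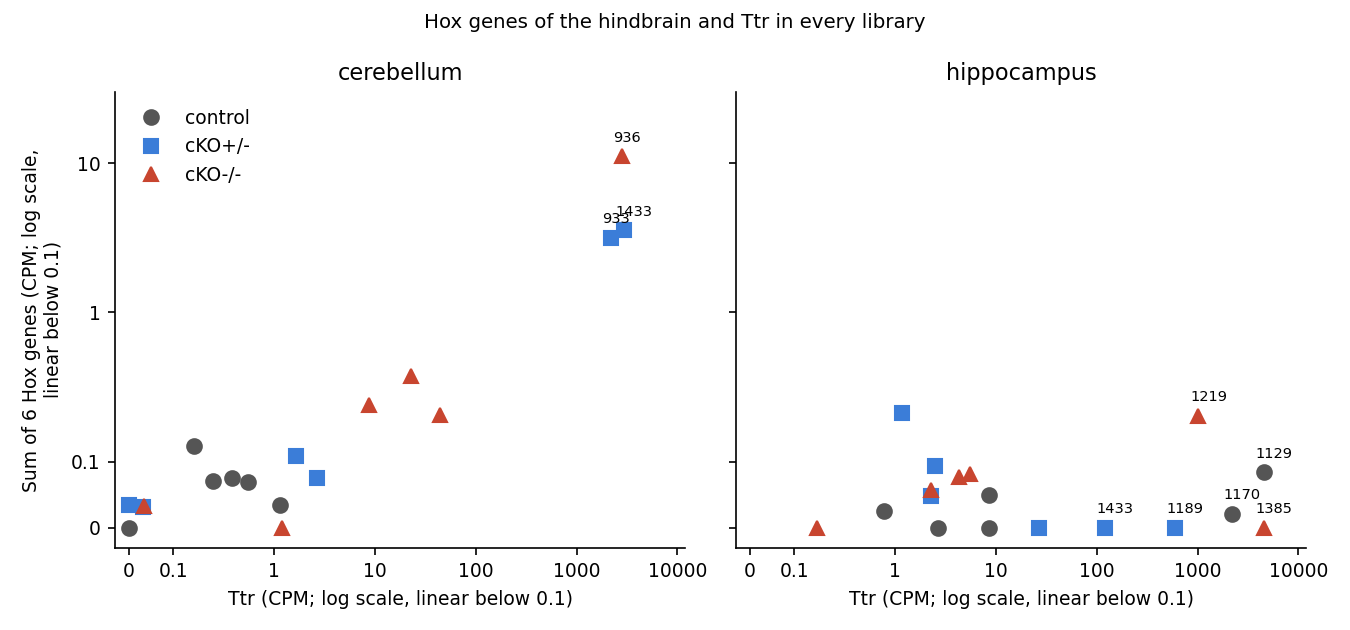
Sum of 6 hindbrain Hox genes (vertical) against Ttr (horizontal) in each cerebellar (left) and hippocampal (right) library, in CPM on log scales that are linear below 0.1, with shapes and colours for genotype and animal numbers beside libraries above 100 CPM of Ttr. The 3 high cerebellar libraries lie at 3.17 to 11.1 CPM of Hox genes, and no hippocampal library exceeds 0.210 CPM.

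With the members and the other choroid plexus genes left out, the 10 genes most like the mean of the members were named by Pearson r over each tissue's libraries, as a description. In the cerebellum (18 libraries) they were Defb11, Tmprss11a, 5730457N03Rik, Smim22, Hoxb3, Rbp2, Slc2a12, Sema3b, Evx1 and Gm853, with r from 0.958 to 0.974. In the hippocampus (17 libraries) they were Wdr86, Olfr570, Col8a2, Defb11, Sema3b, Wdr72, Rbm47, Gm853, Drc7 and Olfr1507, with r from 0.935 to 0.985. Defb11, Sema3b and Gm853 were in both, 3 of 10 in each tissue. Sema3b, a secreted semaphorin, had a median of 2.98 CPM and a maximum of 18.3 CPM in the cerebellum, and a median of 2.55 CPM and a maximum of 18.2 CPM in the hippocampus. Defb11, a defensin gene, was at a median of 0 CPM and at most 0.561 CPM in the cerebellum and 1.28 CPM in the hippocampus. Hoxb3 and Evx1, the homeobox genes among the cerebellar 10, were not among the hippocampal 10. The cerebellar r rest on the 3 high libraries, and within the 15 others they ran from 0.42 for Gm853 to 0.81 for Hoxb3. Hippocampal r rest on the high libraries as well: within the 11 libraries at or below 100 CPM of Ttr they ran from -0.01 for Defb11 to 0.84 for Col8a2, with Sema3b at 0.22 and Gm853 at 0.56. Without Sample_1129 the hippocampal 10 had r from 0.917 to 0.983.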

How the data were processed

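The gene count tables of both tissues deposited by the authors were used as they are, with STAR 250a named for alignment and counting. The submitters' notes name mm9, whereas the coordinates in the tables match GRCm38. Strand use in counting is not stated. Genes above 1 CPM in at least 6 libraries of a tissue were tested with edgeR 4.0.16 (TMM factors, quasi-likelihood F-test) in R 4.3.3, with terms for sex and for the number of Pogz alleles lost, and p values were adjusted over all genes tested at an FDR of 0.05. Fold changes are log2 per allele lost unless a pair of groups is named. The DESeq2 1.42.0 Wald test was run for the allele effects. Levels are CPM of library sizes scaled by TMM, and log2 CPM uses a prior count of 2. Python 3.11.15 with numpy 2.4.6, pandas 2.3.3, scipy 1.17.1 and matplotlib 3.10.9 made the descriptions. Correlations used 100000 permutations with a smallest p of 1e-05.

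Members and lists were chosen with earlier results of these data known. The lists were other choroid plexus epithelium, ependyma, meningeal fibroblasts, endothelium, border macrophages, red blood cells, cerebellar neurons, hippocampal neurons, thalamus and habenula, midbrain and brainstem, and hindbrain position. A gene outside the lists was named only if it was among the 10 most like the mean of the members in a tissue. Alternatives fixed beforehand were DESeq2, RLE factors, the newer quasi-likelihood form, testing without a filter, no sex term, thinning to equal depth, covariates for animal numbers and for Ttr, all 18 hippocampal libraries, the animal as a block and leaving out each animal. Setting aside libraries above 100 CPM of Ttr or Sample_1129, reporting the terms for animal number and Ttr level as results, the unfiltered pairs of groups and the promoter motifs were chosen after seeing the data.

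The fits were tested on simulated data. For the cerebellum, 100 of 100 changed genes were called at a log2 change of 1 and 98 of 98 at 2, with 11 unchanged genes called among 13954. For the hippocampus, 99 of 99 were called at 1 and 95 of 95 at 2, with 11 unchanged genes called among 14256. Of the changed genes, 0 were called in the wrong direction. Members had large standard errors per allele lost, such as 1.52 for Ttr and 0.757 for F5 in the cerebellum. The simulated counts therefore do not tell whether a change of this size in a member would be called. That both tissues of an animal belong together was checked over 13587 genes in 17 animals: the median r between tissues of the same animal was 0.264 (from -0.142 to 0.435, above 0.1 in 15), and -0.0627 between different animals.

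Limits are that bulk tissue was measured, that few libraries carry most of the signal of these genes, and that the sources used here say that the tissues were dissected but not how far each dissection reached. The cause of the differences between libraries was not tested. Every control is numbered from Sample_1120 to Sample_1219, so a difference between controls and animals outside that run can be due to genotype or to whatever the numbers stand for, although both other genotypes lie on either side. The limit of 100 CPM was set on a member itself, so fits that set libraries aside by it are conditional on the outcome. Protein was not analysed here.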

Additional observations from a re-analysis of the deposited data

Results flagged for a closer look

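Of 66 groups looked at, 10 had 1 library far from the others of the group, and chance alone gives about 1 in 20 groups. In cerebellar cKO-/- mice, Sample_936 held the highest log2 CPM for Folr1 (4.03), Clic6 (5.98), Aqp1 (4.14), Kl (6.47), Sostdc1 (3.94), Slc4a5 (4.66), Tmem72 (3.23) and F5 (5.17). These 8 values come from 1 library and are not separate observations. For Pogz, control Sample_1129 had the highest cerebellar value of its group (7.02) and cKO+/- Sample_933 the lowest of its group (6.05). The cause was not tested.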

How the results depend on the processing

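Over alternatives other than leaving out 1 animal, 283 of 328 single-gene values kept their call and direction, 8 were weaker, 5 stronger and 32 reversed. Of 88 counts 65 kept their value or changed by a small ratio only, and 23 moved further. The alternatives named in the processing summary as chosen after seeing the data are included. Members that did not pass the filter have no value to compare with and are not counted. The cause was not tested.

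For the cerebellar allele effect, DESeq2 called 1 member. With a covariate for animal numbers 308 genes were called, with Ttr at -0.0936, Clic6 at -0.43, Kl at -0.0470 and Slc4a5 at -0.41. With Ttr as a covariate 697 genes were called, with Clic6 at -0.42, Slc4a5 at -0.48 and F5 at -0.0186. With libraries above 100 CPM of Ttr set aside 3 members were called, with Clic6 at -0.18 and Slc4a5 at -0.0929, and with the number covariate too 233 genes were called, with Clic6 at -0.31 and Slc4a5 at -0.16. For animals outside Sample_1120 to Sample_1219, 10 members were called without a filter, and with those libraries set aside 204 genes and 0 members, with F5 at -0.24. Between cKO-/- and control, only animals Sample_1120 to Sample_1219 gave 276 genes and 0 members, with Clic6 at -0.73 and Slc4a5 at -0.15, and no filter gave 5 members. Between cKO+/- and control, only those animals gave 19 genes, with Clic6 at -0.42 and Slc4a5 at -0.63.

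For the hippocampal allele effect, DESeq2 called 1056 genes. Without a sex term Ttr was at -0.0486, Folr1 at -0.0375, Kl at -0.0204 and Calml4 at -0.0866. The number covariate gave 68 genes, and the Ttr covariate gave Kl at -0.10. All 18 libraries gave 246 genes with Kl at -0.0677, and 291 genes with Kl at -0.0699 without a filter. With libraries above 100 CPM set aside 128 genes were called, with Ttr at -0.42, Folr1 at -0.0674, Clic6 at -0.63, Kl at -0.33 and Calml4 at -0.18. The sex difference with all 18 libraries gave 6 genes. Between cKO-/- and control, only animals Sample_1120 to Sample_1219 gave 10 genes, and all 18 libraries 256 genes with Kl at -0.15. Between cKO+/- and control, only those animals gave 1 gene with Ttr at 3.58, and all 18 libraries 3 genes.

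With the animal as a block, the tissue difference in controls called 11476 genes and 3 members, with Slc4a5 at -0.71, Folr1 at 5.53 and Calml4 at 2.60, and the tissue difference in the allele effect called 333 genes and 0 members. Without hippocampal Sample_1129 the tissue difference called 1 member, and Clic6 was at 0.39 for the difference in the allele effect.

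Leaving out 1 animal at a time, the cerebellar allele effect called 935 to 2572 genes and 0 to 1 members, with Ttr from 2.82 to 4.61, Clic6 from -0.0783 to 0.26, Kl from 0.99 to 1.47, Slc4a5 from 0.08 to 0.65 and F5 from 0.88 to 1.52. The hippocampal allele effect called 286 to 937 genes and 0 members, with Ttr from 0.07 to 1.25, Folr1 from -0.38 to 0.65, Clic6 from -0.30 to 0.96, Kl from -0.52 to 0.24, Sostdc1 from -0.00853 to 0.73, Slc4a5 from -0.19 to 1.04, Calml4 from -0.44 to 0.48 and F5 from -0.10 to 0.96.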
